A study of Mus musculus with 20 samples.

Results

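Collagens and the enzymes that build, crosslink and degrade them were followed in prostate tumor cells sorted from mouse bone lesions. The members were all genes whose symbol is a collagen chain (Col, a number, a, a number), or starts with Mmp, Adamts, Timp or Plod, or is Lox or Loxl1 to Loxl4. This rule found 91 of the 17104 genes in the 3 deposited expression tables. They were 42 collagen chains, 18 Mmp genes, 19 Adamts and Adamtsl genes, 4 Timp genes, 3 Plod genes and 5 Lox genes. The tumor cells were MycCaP-Bo, an androgen-dependent mouse prostate cancer line of Myc-driven origin in the FVB strain that had been selected in mice for homing to bone and labeled with iRFP and luciferase. The line was injected into the heart of FVB/N males aged 4 to 6 weeks, and cells negative for CD45 and positive for iRFP were sorted from bone lesions. All 4 groups carried the same tumor line, so the comparisons are between treatments and not between genotypes. Naive lesions received vehicle, and Resist lesions received the antiandrogen drug enzalutamide at 30 mg/kg daily for 18 days. Resist-Mac lesions received the same enzalutamide course and, in its last 4 days, clodronate liposomes at 1 mg per mouse, which deplete macrophages. Naive-Mac lesions received clodronate liposomes without enzalutamide, over a time not given in the sources used here. Each group had 5 libraries, and each library held the cells of 3 pooled mice. The column headers of Resist-Mac 2 and 3 share a code, as do those of Resist-Mac 4 and 5 and those of Naive-Mac 1 and 4. What the codes mean is not stated, so libraries of a group may not be independent of each other, and p-values measure the spread between these pools.

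Collagen chains assemble in threes into a triple helix, fibrils in types I, III and V and a meshwork in type IV, the collagen of basement membranes. Plod enzymes hydroxylate lysines of the chains inside the cell, and Lox enzymes oxidize lysines outside it so that chains crosslink. Mmp and Adamts proteases cleave matrix proteins, and Timp proteins inhibit them. In bone most type I collagen is made by osteoblasts, whereas epithelial cells are known mainly for type IV collagen and other basement membrane proteins.

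Values are FPKM, read numbers scaled to transcript length and library size, which is meant to put different genes on one scale. Differences related to transcript length remained between the batches, as given below. Levels of long and short genes are set side by side with that limit. Read counts were not in the tables, so depth is unknown. FPKM was above 0 for 58 to 63 of the 91 members per Naive library, 51 to 74 per Resist library, 48 to 67 per Resist-Mac library and 39 to 48 per Naive-Mac library. Naive and Resist libraries carry the label of the first batch, Resist-Mac libraries of the second and Naive-Mac libraries of the third. Batch and macrophage depletion therefore cannot be told apart, and neither can batch and enzalutamide among the depleted lesions. Of the prostate epithelium markers, Krt8 had means of 317, 190.3, 107 and 196 FPKM in Naive, Resist, Resist-Mac and Naive-Mac, and Hoxb13, Foxa1 and Krt19 were also above 1 FPKM in every group, while group means of Krt18 and Cdh1 were at most 0.106 and 0.084 FPKM. Neutrophil transcripts were present although CD45-negative cells were sorted. The sum of 8 neutrophil markers ranged from 176 to 1266 FPKM in Naive, 61.3 to 601 in Resist, 405 to 8756 in Resist-Mac and 58.6 to 6143 in Naive-Mac libraries. The sum of 9 macrophage markers ranged from 3.12 to 21.3 FPKM in Naive, 1.78 to 13.8 in Resist, 4.64 to 88.3 in Resist-Mac and 1.2 to 23.6 in Naive-Mac. Cd14 was the largest part of it, with means of 7.09, 4.27, 28.7 and 9.86 FPKM in these groups. Cd68, Csf1r and Ptprc were also highest in Resist-Mac, at means of 2.37, 1.13 and 2.61 FPKM. Adgre1, Mrc1, C1qa, C1qb and C1qc had group means of at most 0.434 FPKM. Hba-a1, an alpha globin of red cells, had means of 88.9, 153, 222 and 449 FPKM in Naive, Resist, Resist-Mac and Naive-Mac and was called higher in Resist than in Naive (log2 change 0.78, adjusted p = 0.0245, limma) and lower in Naive than in Naive-Mac (log2 change -2.13). The part of these other cells in the members' values was not tested. In these bulk libraries a smaller share of expressing cells and less RNA per cell cannot be told apart.

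Of the 91 members, 27 reached a mean of at least 1 FPKM in at least 1 group. They were 10 of 42 collagens, 3 of 5 Lox genes, all 3 Plod genes, 2 of 4 Timp genes, 5 of 19 Adamts and Adamtsl genes and 4 of 18 Mmp genes. Resist had 25 members at or above this level, Resist-Mac 23, Naive 22 and Naive-Mac 16. Resist had the highest group mean for 18 of the 27 members, Naive for 5, Resist-Mac for 4 and Naive-Mac for 0. Naive-Mac had the lowest group mean for 19 of them. The groups lie in 3 batches, and such counts were not made over all genes. Of all genes tested, 57.9% were higher in Naive than in Naive-Mac by the sign of the fitted log2 change. The share higher in Resist-Mac than in Naive-Mac was 68.2%. It was 56.1% for Resist over Naive and 48.2% for Resist over Resist-Mac. Among the other 64 members the highest group mean was 0.71 FPKM, that of Col10a1 in Resist, followed by Mmp14 at 0.71 and Mmp28 at 0.69 in Resist. The members just above the level were Mmp25 at 1.16 FPKM in Resist-Mac and Mmp11 at 1.71 in Resist. Several well known matrix genes were low in all 4 groups. Mmp2, a gelatinase, had group means of at most 0.25 FPKM, Lox itself 0.18, Timp3 0.12, and Col5a2, which pairs with Col5a1 in type V collagen, 0.49. Of the 91, 76 were listed in all 3 tables, and 3 were at 0 in each library that lists them.

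**Figure D1:**
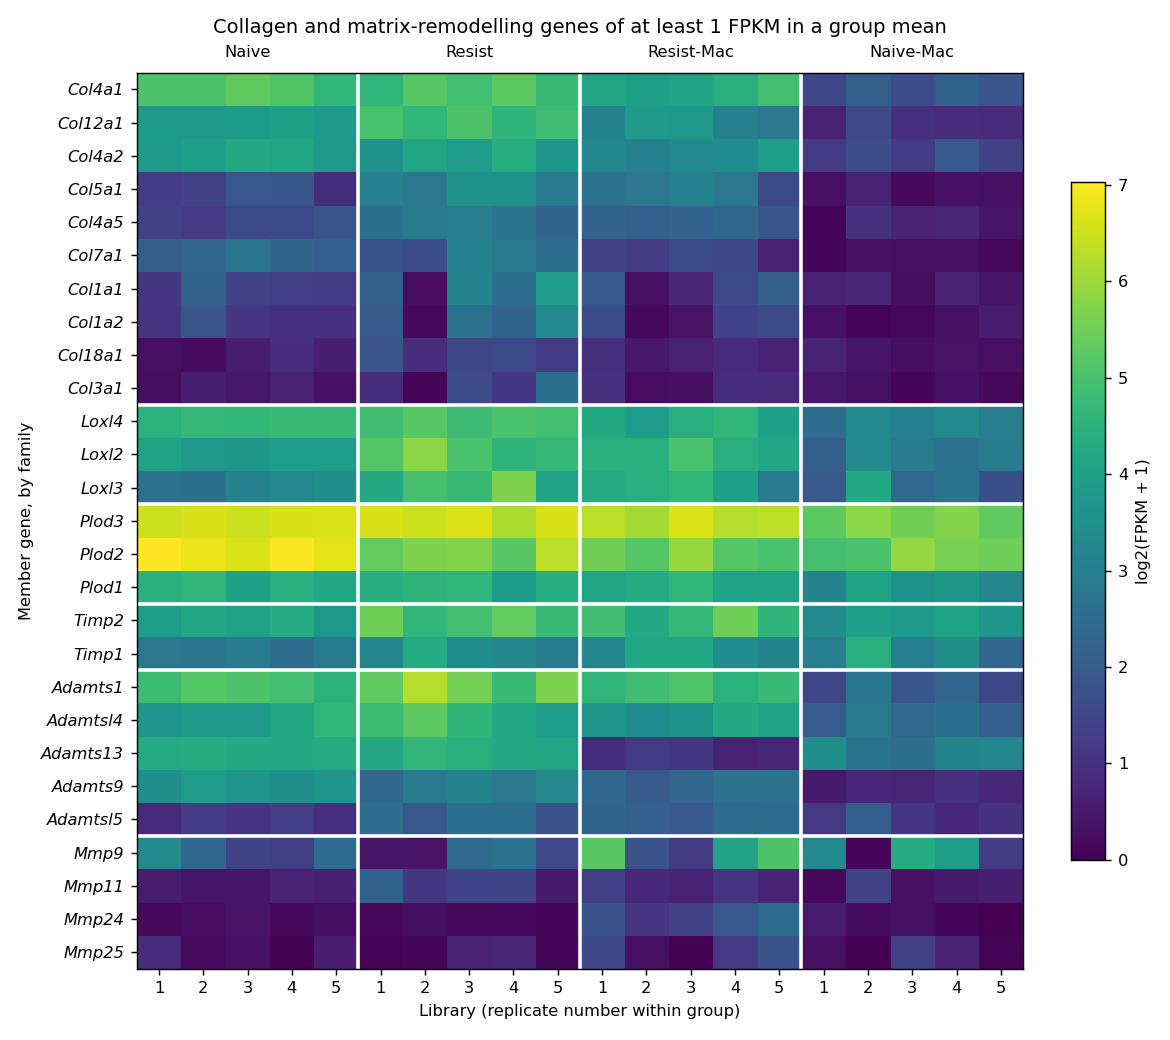
Levels of the 27 members with a group mean of at least 1 FPKM, as log2(FPKM + 1) by color, for the 20 libraries (columns, by group) and the genes (rows, by family). Plod2 and Plod3 are the brightest rows, Adamts13 is dark in the 5 Resist-Mac libraries, and most rows are darkest in Naive-Mac.

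Col4a1 of the basement membrane had the highest mean of all collagens in each group, and neither it nor its partner Col4a2 was called in Resist vs. Naive. Col4a1 and Col4a2 encode the chains of the common type IV network and lie head to head, with RefSeq start sites 21 bases apart on opposite strands. Their start regions are shown because both genes share them. The RefSeq windows of 250 bases before to 50 bases after each start (GRCm38.p6, chr8:11312777-11313076 on the minus strand and chr8:11312555-11312854 on the plus strand) overlap by 78 bases, the last 78 of each line read on opposite strands. Capitals mark GGGCGG and its reverse complement CCGCCC, the GC box to which Sp1 and related factors bind:
Col4a1: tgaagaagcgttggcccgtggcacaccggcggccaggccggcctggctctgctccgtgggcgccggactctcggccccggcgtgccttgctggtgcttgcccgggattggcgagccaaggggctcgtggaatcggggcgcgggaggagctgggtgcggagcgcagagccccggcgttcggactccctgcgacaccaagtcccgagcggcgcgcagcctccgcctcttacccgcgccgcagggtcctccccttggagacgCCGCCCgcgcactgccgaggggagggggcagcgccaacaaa
Col4a2: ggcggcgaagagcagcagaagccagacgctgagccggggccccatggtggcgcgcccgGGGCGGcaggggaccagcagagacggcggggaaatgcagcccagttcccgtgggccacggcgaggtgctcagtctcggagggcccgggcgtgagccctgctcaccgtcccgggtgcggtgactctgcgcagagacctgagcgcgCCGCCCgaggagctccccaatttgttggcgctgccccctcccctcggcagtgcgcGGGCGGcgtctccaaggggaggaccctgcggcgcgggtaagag
GC boxes are common, as 35.7% of all 32851 RefSeq promoter windows hold one on either strand, and 71.9% of the 8160 windows of genes tested in Resist vs. Naive do. Of the 27 members above, 21 had a window and 19 of these held the motif. A match describes the letters only.

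Col4a1 was at 32.7, 32.5, 39.1, 33.5 and 24.2 FPKM in the 5 Naive libraries, 23.6, 35.9, 28.9, 37.1 and 25.5 in Resist, 16.8, 15.2, 16.2, 20.5 and 28.8 in Resist-Mac and 1.85, 3.4, 2.17, 3.5 and 2.59 in Naive-Mac. Naive and Resist libraries overlapped, and the Naive-Mac libraries were all far below the others. Col4a2 was at 13.3, 14.5, 18, 16.5 and 12.7 FPKM in Naive, 11.3, 16.8, 13.8, 19.7 and 11.9 in Resist, 8.72, 7.54, 9.16, 9.76 and 14.6 in Resist-Mac and 1.27, 2.19, 1.33, 2.82 and 1.55 in Naive-Mac. Col4a2 was lower than Col4a1 in each of the 20 libraries. The ratio of Col4a1 to Col4a2 averaged 2.17 ± 0.21 (SD, n = 5) in Naive, 2.07 ± 0.11 in Resist, 1.95 ± 0.12 in Resist-Mac and 1.51 ± 0.17 in Naive-Mac. The ratio was lowest in Naive-Mac, where it spanned 1.24 to 1.67 and lay below every library of the other groups. In Resist vs. Naive the log2 change of log2(FPKM + 1) was -0.11 ± 0.14 (SE) for Col4a1, with an adjusted p of 0.635, and -0.04 ± 0.15 for Col4a2, with an adjusted p of 0.861. Of the other type IV chains, Col4a5, an X-linked chain of specialized basement membranes, reached 5.5 FPKM in Resist, whereas Col4a3, Col4a4 and Col4a6, its partners in such membranes, had group means of at most 0.012 FPKM.

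Resist vs. Naive asks what differs between lesions growing under enzalutamide and untreated lesions. Called higher in Resist were 4 collagens, 2 crosslinking enzymes, 2 protease inhibitors, the metalloproteinase gene Mmp11 and the Adamts-like gene Adamtsl5. A lysyl hydroxylase and a protease were called lower. A call required an adjusted p (Benjamini-Hochberg, limma) under 0.05 together with a fold change over 1.5. As background, 5.25% of the 10119 genes that entered the fit were called higher and 1.11% lower, and 12.8% had groups without overlap. Entry required an average of 1 FPKM or more in the 10 libraries compared, which 25 of the 91 members reached. Of these 25, 10 were called higher, 2 were called lower, and 10 had groups that did not overlap. The median log2 change was 0.66 over these members and 0.03 over all genes tested. The members that passed only through Resist had to differ, namely Col18a1, Col3a1 and Mmp11, whose Naive means were below 1 FPKM. Of the other 22, 8 were called higher and 2 lower. Naive and Resist libraries come from the same batch.

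Of the 10 collagens tested, 4 were called higher, 0 lower and 6 did not pass. Col12a1, a fibril-associated collagen, was at 13, 12.9, 13.2, 15.2 and 12.9 FPKM in Naive and 30.6, 24.2, 32.6, 22.9 and 28.6 in Resist. The lowest Resist library was above the highest Naive library, and the log2 change was 0.99 ± 0.10, or 2.07-fold in mean FPKM, with an adjusted p of 0.000105. Col5a1, a chain of type V collagen that helps to start fibrils, was at 1.35, 1.59, 2.72, 2.65 and 0.88 FPKM in Naive and 7.34, 5.9, 10.9, 11.3 and 6.3 in Resist. Its groups did not overlap either, with a log2 change of 1.73 ± 0.22 and an adjusted p of 0.000462, the largest change among the collagens tested. Col4a5 was at 1.58, 1.26, 2, 1.99 and 2.6 FPKM in Naive and 5.07, 6.37, 6.89, 5.58 and 3.6 in Resist, without overlap, and rose by 1.17 ± 0.16 on the log2 scale with an adjusted p of 0.000788. Col18a1, a basement membrane proteoglycan whose end fragment is endostatin, was low throughout. It was at 0.21, 0.16, 0.45, 0.86 and 0.51 FPKM in Naive and 2.59, 0.86, 1.88, 1.99 and 1.36 in Resist, where Naive 4 and Resist 2 had the same value of 0.86, and it was called with a log2 change of 0.91 ± 0.19 and an adjusted p of 0.00698. Col7a1, which anchors basement membranes, averaged 3.98 ± 1.03 FPKM in Naive and 4.65 ± 2.3 in Resist and was not called (adjusted p = 0.814).

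**Figure D2:**
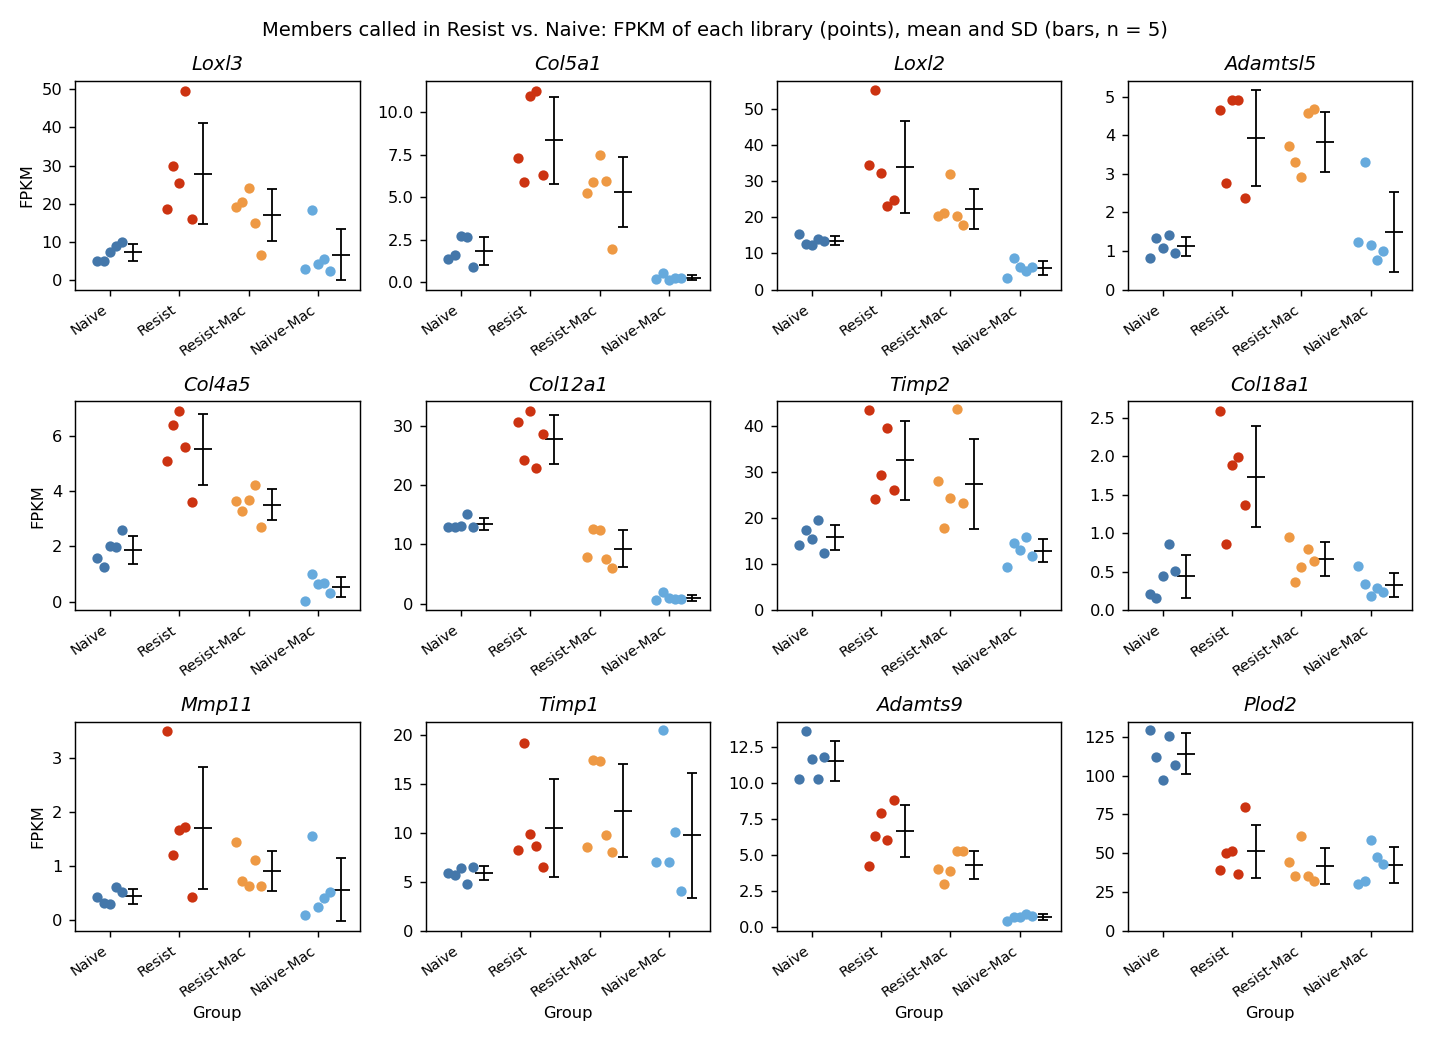
FPKM (y axis, from 0) of the 12 members called in Resist vs. Naive, for each of the 5 libraries per group (points) with the mean and SD (bars), in the 4 groups. Naive and Resist points do not overlap in 9 panels and overlap or meet in those of Col18a1, Mmp11 and Timp1, and Naive has the highest mean for Plod2 and Adamts9.

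The fibrillar collagens of types I and III spread widely within Resist. Col1a1 was at 1.18, 3.61, 1.61, 1.42 and 1.37 FPKM in Naive and 3.4, 0.17, 7.78, 4.86 and 13.5 in Resist. Col1a2, the second type I chain, was at 1.08, 2.61, 1.16, 1.02 and 0.94 in Naive and 3, 0.11, 5.33, 3.84 and 9.38 in Resist, and Col3a1 at 0.19, 0.50, 0.36, 0.56 and 0.26 and 0.88, 0.08, 2.12, 1.22 and 5.02. All 3 genes had their lowest Resist value in Resist 2, below every Naive library, and their highest in Resist 5. None was called, with log2 changes of 0.94 ± 0.52, 0.89 ± 0.46 and 0.83 ± 0.35 and adjusted p of 0.227, 0.19 and 0.115. Without Resist 2 all 3 were called, with log2 changes of 1.47, 1.38 and 1.12. Serpinh1, the chaperone of newly made collagen, was at 0.91, 0.10, 1.11, 1.12 and 2.24 FPKM in Resist, also lowest in Resist 2 and highest in Resist 5. In these 5 libraries the sum of 6 endothelial markers was 2.44, 0.25, 3.26, 2.5 and 2.08 FPKM, and that of the smooth muscle and pericyte markers 0.46, 0.08, 0.88, 0.48 and 0.58, both lowest in Resist 2. The sum of 9 fibroblast and marrow stroma markers was 1.85, 2.2, 2.89, 3.78 and 3.4 FPKM. Among the stroma markers, Pdgfrb was at 0.12, 0.07, 0.19, 0.2 and 0.32 FPKM and Lum at 0.1, 0, 0.12, 0.08 and 0.26, and both were lowest in Resist 2 and highest in Resist 5. Other stroma markers had other orders. Pdgfra and Lepr were lowest in Resist 1, at 0.91 and 0.31 FPKM, and Dcn in Resist 4, at 0.05. Cxcl12 was highest in Resist 4, at 0.73 FPKM. Thy1, Fap and Dpt had Resist means of at most 0.046 FPKM. Of the osteoblast markers, Ibsp was at 0.26, 0.04, 0.21, 0.09 and 0.08 FPKM, and Bglap2 was listed at 0 in the first 4 of these libraries and at 0.66 in Resist 5. Bglap, Sp7 and Alpl had group means of at most 0.104, 0.026 and 0.03 FPKM. The part of other cells in the type I and III values was not tested.

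Promoter windows of 2 members that rose in Resist are printed for the start regions of a collagen and of an inhibitor, again with GC boxes in capitals (RefSeq, GRCm38.p6, Col5a1 at chr2:27886175-27886474 on the plus strand and Timp2 at chr11:118355362-118355661 on the minus strand):
Col5a1: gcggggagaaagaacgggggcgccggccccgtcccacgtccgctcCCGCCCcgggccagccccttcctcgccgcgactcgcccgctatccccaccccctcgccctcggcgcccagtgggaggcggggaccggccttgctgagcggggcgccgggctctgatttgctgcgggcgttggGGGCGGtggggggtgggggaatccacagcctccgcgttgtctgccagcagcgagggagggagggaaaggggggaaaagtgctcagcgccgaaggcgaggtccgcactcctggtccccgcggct
Timp2: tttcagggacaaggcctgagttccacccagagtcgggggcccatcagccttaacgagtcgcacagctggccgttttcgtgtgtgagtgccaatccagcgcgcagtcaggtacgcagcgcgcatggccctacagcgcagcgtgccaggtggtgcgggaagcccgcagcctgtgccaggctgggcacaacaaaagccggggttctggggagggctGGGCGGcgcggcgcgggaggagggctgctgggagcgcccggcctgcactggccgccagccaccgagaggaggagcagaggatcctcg
All 7 of the 10 members called higher that had a window held a GC box, against the 71.9% of tested genes given above. Col12a1, Loxl2 and Loxl3 had no window in the table.

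Loxl2 and Loxl3, lysyl oxidase family members that crosslink matrix, both rose. Loxl2 was at 15.4, 12.5, 12.3, 14.1 and 13.6 FPKM in Naive and 34.5, 55, 32.1, 23 and 24.9 in Resist, so every Resist library was above every Naive library. Its log2 change was 1.20 ± 0.19, or 2.5-fold in mean FPKM, with an adjusted p of 0.00141. Loxl3 was at 5.15, 5.08, 7.52, 8.87 and 10 FPKM in Naive and 18.6, 29.8, 25.5, 49.7 and 16.1 in Resist, again without overlap. Its log2 change of 1.73 ± 0.27 with an adjusted p of 0.0014 was the largest of the 25 members. The gene Htra2 overlaps Loxl3 in RefSeq and the strand used in counting is not stated, while Htra2 averaged 24.4 FPKM in Naive and 27.2 in Resist. Loxl4 was at 21.5, 24.7, 24.3, 26.3 and 25.9 FPKM in Naive and 28.3, 36.1, 27.4, 32.2 and 28.6 in Resist. Although these groups did not overlap, its change of 0.30 ± 0.09 was below the fold threshold, with an adjusted p of 0.0294. Lox and Loxl1 were too low to be tested.

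Plod2 and Plod3 had the highest means of all members in Naive and Resist, and Plod2 was the one Plod gene called. Plod2, which hydroxylates lysines in the collagen telopeptides, was at 129.7, 112, 97.4, 126 and 107 FPKM in Naive and 39.4, 49.8, 51.5, 36.3 and 79.6 in Resist. Each Resist library was below each Naive library, with a log2 change of -1.19 ± 0.17, or 2.23-fold lower in mean FPKM, and an adjusted p of 0.00106. Plod3, which also glycosylates hydroxylysine, was at 89.5, 96.2, 89.4, 95.8 and 97.9 FPKM in Naive and 96.1, 88.7, 99.8, 71 and 96.2 in Resist, and Plod1 at 21.2, 23.8, 15.3, 20.8 and 17.5 and 20, 22.7, 23.9, 13.1 and 20. Both overlapped between the groups, with log2 changes of -0.06 ± 0.09 and 0.00 ± 0.15 and adjusted p of 0.648 and 0.987. The gene Znhit1 overlaps Plod3 by 941 bases in RefSeq. It averaged 75.2 FPKM in Naive, 63.1 in Resist, 97.1 in Resist-Mac and 182 in Naive-Mac. The part of this overlap in the Plod3 values was not tested. The summed Plod level was 162 ± 27.8 FPKM (SD, n = 5) in Resist and 228 ± 16.4 in Naive, and the summed Lox level was 92.7 ± 20.1 and 45.5 ± 3.7.

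Both expressed protease inhibitors were higher in Resist. Timp2 was at 14.3, 17.4, 15.5, 19.6 and 12.4 FPKM in Naive and 43.6, 24.3, 29.3, 39.5 and 26.2 in Resist, without overlap, and its log2 change was 0.97 ± 0.16 with an adjusted p of 0.00219. Timp1 was at 5.9, 5.72, 6.41, 4.74 and 6.49 FPKM in Naive and 8.22, 19.1, 9.89, 8.59 and 6.49 in Resist, where Resist 2 stood far above the others and Resist 5 equaled the highest Naive library. It was called narrowly, with a log2 change of 0.66 ± 0.21 and an adjusted p of 0.0472, and it lost the call without any single library except Resist 5. Without Resist 2 its change was 0.43. Timp3 was at 0.02, 0.11, 0.06, 0.07 and 0.08 FPKM in Naive and 0.19, 0, 0.18, 0.11 and 0.14 in Resist, too low to be tested.

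Among the Adamts genes, Adamtsl5 rose, Adamts9 fell and the 3 most abundant were not called. Adamtsl5, an Adamts-like protein without protease domain, was at 0.81, 1.34, 1.07, 1.42 and 0.96 FPKM in Naive and 4.66, 2.76, 4.91, 4.9 and 2.38 in Resist, with no overlap, a log2 change of 1.18 ± 0.17 and an adjusted p of 0.00113. Adamts9, a protease of versican and aggrecan, was at 10.2, 13.6, 11.6, 10.3 and 11.8 FPKM in Naive and 4.2, 6.28, 7.88, 6.05 and 8.83 in Resist. All Resist libraries were below all Naive libraries, with a log2 change of -0.73 ± 0.15 and an adjusted p of 0.0063. Adamts1, which cleaves the same proteoglycans, was at 27.5, 35.2, 32.3, 29.4 and 22 FPKM in Naive and 38.9, 74.8, 46.5, 25.5 and 50 in Resist, and Adamtsl4 at 12, 13, 12.4, 17.6 and 23.8 and 27.8, 37.9, 23.2, 17.3 and 13.8. Each of them had its highest value in Resist 2 and overlapped between the groups, with adjusted p of 0.0785 and 0.142. Adamts1 was called without Resist 4 (log2 change 0.80) and Adamtsl4 without Resist 5 (0.71). Adamts13, the protease of von Willebrand factor, was at 18.9, 19.6, 18.6, 18.7 and 19.2 FPKM in Naive and 18, 23.8, 20.9, 18.5 and 16.9 in Resist and did not pass (adjusted p = 0.816).

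Only 2 Mmp genes were high enough to be tested in Resist vs. Naive. Mmp11, a metalloproteinase activated by furin inside the cell, was at 0.44, 0.32, 0.31, 0.62 and 0.53 FPKM in Naive and 3.5, 1.22, 1.68, 1.73 and 0.43 in Resist. Resist 5 lay within the Naive range while the other Resist libraries were above it, and the log2 change was 0.82 ± 0.24 with an adjusted p of 0.0352. Leaving out single libraries lost this call in 7 of the 9 cases in which the gene passed the filter, namely without any 1 of the Naive libraries, Resist 3 or Resist 4, at changes of 0.78 to 0.86. Mmp9, a gelatinase stored in neutrophil granules, was at 9.05, 4.18, 1.68, 1.46 and 4.65 FPKM in Naive and 0.31, 0.30, 4.31, 5.37 and 1.93 in Resist and was not called (log2 change -0.70 ± 0.50, adjusted p = 0.34).

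Mmp9 varied with the neutrophil transcripts from library to library, though not all neutrophil markers gave the same order of libraries. Ngp, a neutrophil granule gene, was at 147, 62.2, 25.6, 24.5 and 79.1 FPKM in Naive, 7.53, 8.09, 74, 91 and 30.5 in Resist, 753, 58, 39.5, 283 and 633 in Resist-Mac and 242, 3.67, 464, 296 and 54.2 in Naive-Mac. Mmp9 was at 36.6, 2.48, 1.3, 16.3 and 32.3 in Resist-Mac and 8.97, 0.06, 19.6, 13.9 and 1.35 in Naive-Mac. Within Naive, Resist-Mac and Naive-Mac the order of the 5 libraries by Mmp9 was the order by Ngp, and within Resist only the 2 lowest libraries, at 0.31 and 0.30 FPKM of Mmp9, changed places. Other neutrophil markers gave partly other orders. S100a8, S100a9, Camp and Retnlg were higher in Naive-Mac 1 than in Naive-Mac 4, as for S100a8 at 1914 and 1568 FPKM. Elane, Mpo and Ltf were lower there, like Mmp9 and Ngp. Camp and Ltf were lower in Naive 3 than in Naive 4, unlike Mmp9. Mmp25, a membrane-bound metalloproteinase of leukocytes, was at 1.87, 0.22, 0, 1.25 and 2.47 FPKM in Resist-Mac, in the same order of libraries as Mmp9 apart from 1 and 5. The part of neutrophil RNA in the Mmp9 and Mmp25 values was not tested. The gene Bicdl2 overlaps Mmp25 by 665 bases in RefSeq. It averaged 5.68 FPKM in Naive, 3.91 in Resist, 5.05 in Resist-Mac and 2.69 in Naive-Mac, and its part in Mmp25 was not tested.

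**Figure D3:**
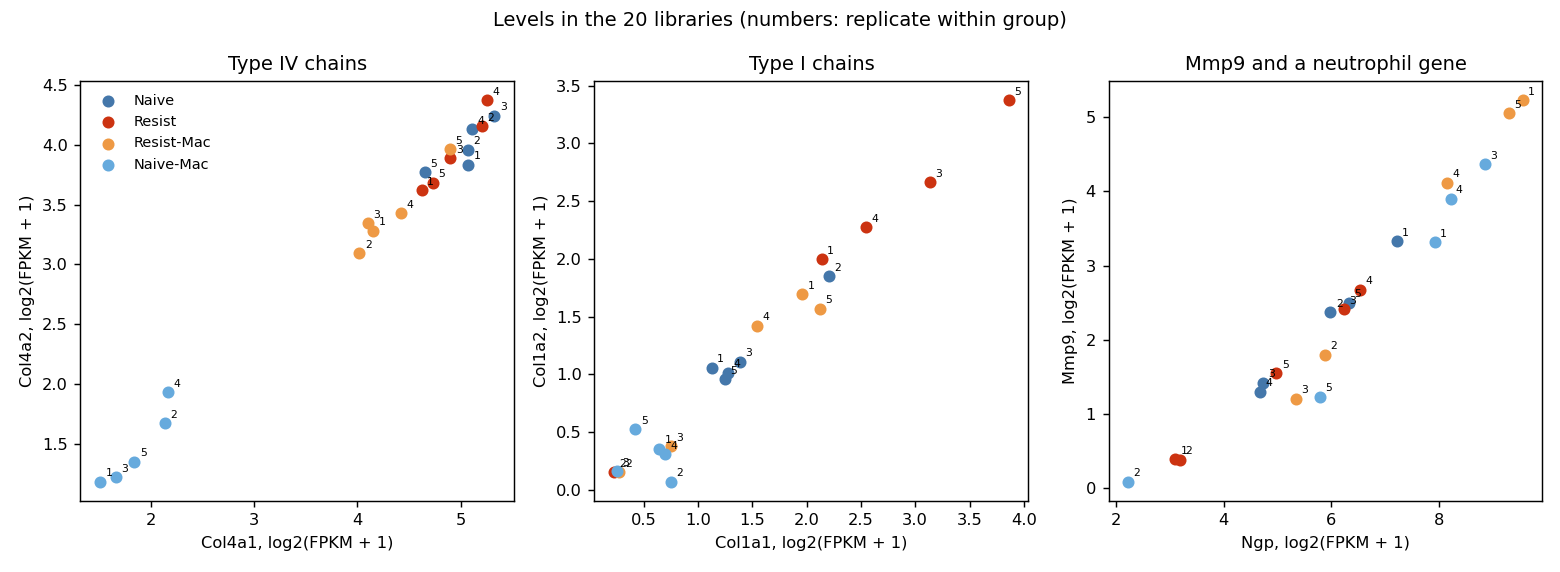
Levels of gene pairs in the 20 libraries as log2(FPKM + 1), colored by group and numbered by replicate, for Col4a1 and Col4a2 (left), Col1a1 and Col1a2 (middle) and Ngp and Mmp9 (right). Col4a1 and Col4a2 separate Naive-Mac from the rest, Col1a1 and Col1a2 spread the Resist libraries from 2 (lowest) to 5 (highest), and Mmp9 rises with Ngp within each group apart from the 2 lowest Resist libraries.

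Genes that process collagen beside the members were listed separately. Of 21 partners in collagen biosynthesis and assembly, 13 were tested, 5 were called higher in Resist and 0 lower, with a median log2 change of 0.50. Pcolce, which enhances the cleavage of procollagen, was at 43.8, 44.7, 49, 59.9 and 52.4 FPKM in Naive and 233, 174, 167, 135 and 121 in Resist, a log2 change of 1.68 ± 0.15 with an adjusted p of 6.74e-05. Bmp1, the procollagen proteinase that it enhances, averaged 6.45 ± 1.57 FPKM in Naive and 18.2 ± 7.67 in Resist (log2 change 1.27 ± 0.28, adjusted p = 0.00995). Sparc, a collagen-binding glycoprotein, changed by 1.31 ± 0.24 (adjusted p = 0.00335) and P4ha3, a prolyl hydroxylase subunit, by 1.30 ± 0.18 (adjusted p = 0.000865). P4ha3, counted among the 5, averaged 0.208 FPKM in Naive and 2.004 in Resist, so it passed the filter only through Resist and had to differ. The most abundant partner, P4hb, averaged 918 FPKM in Naive and 780.0 in Resist and was not called. Of 24 other matrix proteases, activators and inhibitors, 15 were tested, 1 was called higher and 0 lower, namely Cd44, a hyaluronan receptor that docks proteases (log2 change 0.65 ± 0.10, adjusted p = 0.00134). Ctsd, the lysosomal protease cathepsin D, averaged 789.5 FPKM in Naive and 944 in Resist and was not called. Of 9 collagen receptors, 4 were tested with limma and 0 were called. Ddr2 and Itga10 had adjusted p of 0.0101 and 0.0347, with log2 changes of 0.40 and 0.57 that were below the fold threshold. Itgb1, the shared beta chain of the collagen-binding integrins, averaged 134 FPKM in Naive and 145 in Resist.

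Resist-Mac vs. Naive-Mac makes the same contrast of enzalutamide against none among macrophage-depleted lesions, in libraries that Resist vs. Naive did not use. The 2 groups belong to different batches. Over all 9760 genes tested, 37.2% were called higher in Resist-Mac, 9% lower, and 47.8% had groups that did not overlap. Of 21 members tested, 17 were called higher, 1 lower and 15 had no overlap, and their median log2 change was 1.39 against 0.34 over all genes. Of the 18 called, 6 had a mean below 1 FPKM in 1 group and passed the filter through the other, namely Adamts9, Col4a5, Col5a1, Col1a1 and Mmp24 through Resist-Mac and Adamts13 through Naive-Mac. Of the 10 members called higher in Resist vs. Naive, 8 could be tested here and 7 of them were called higher, Col4a5 and Col5a1 among them. After the length and GC correction Col12a1 and Loxl2 kept the call, and Col5a1 (0.65), Col4a5 (0.41), Loxl3 (0.68), Timp2 (0.34) and Adamtsl5 (0.11) lost it. Col5a1 was 1.96 to 7.51 FPKM in Resist-Mac and 0.14 to 0.55 in Naive-Mac, with a log2 change of 2.22 ± 0.25 and an adjusted p of 6.97e-06. The ranges of Col12a1 were 5.96 to 12.7 and 0.58 to 1.92 FPKM (log2 change 2.33 ± 0.22) and those of Col4a5 2.69 to 4.2 and 0.04 to 0.99 (log2 change 1.58 ± 0.19). Loxl2, at 20.3, 21.3, 32, 20.4 and 17.7 FPKM in Resist-Mac and 3.34, 8.86, 6.27, 5.13 and 6.39 in Naive-Mac, changed by 1.76 ± 0.21, and Timp2, at 28.1, 17.8, 24.5, 43.7 and 23.4 and 9.33, 14.6, 13, 15.8 and 11.9, by 0.99 ± 0.21. These 5 genes had no overlap between the groups. Loxl3 was at 19.1, 20.5, 24.3, 14.9 and 6.51 FPKM in Resist-Mac and 2.89, 18.5, 4.33, 5.58 and 2.31 in Naive-Mac, and Adamtsl5 at 3.71, 3.3, 2.91, 4.57 and 4.68 and 1.24, 3.31, 1.15, 0.77 and 1. Both were called, with log2 changes of 1.44 ± 0.44 and 1.02 ± 0.23, but Naive-Mac 2 reached into the Resist-Mac range. Timp1 was at 8.5, 17.4, 17.3, 9.76 and 8.07 FPKM and 7.04, 20.4, 7.03, 10 and 3.99 FPKM and was not called (adjusted p = 0.313), and Col18a1 (means of 0.66 and 0.33 FPKM) and Mmp11 (0.91 and 0.57) were too low to be tested. Of 12 partners in collagen biosynthesis tested, 6 were called higher in Resist-Mac and 0 lower, including Bmp1 (log2 change 1.96 ± 0.27), P3h1 (1.26 ± 0.21) and Pcolce (0.80 ± 0.18).

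The 2 members called lower in Resist were not called lower here. Plod2 was at 44.6, 35.5, 61.2, 35.4 and 32.2 FPKM in Resist-Mac and 29.9, 32, 58.4, 47.5 and 43.2 in Naive-Mac, a log2 change of -0.01 ± 0.20 with an adjusted p of 0.963. The high Plod2 level of the Naive libraries, at least 97.4 FPKM, was reached by no library of the other 3 groups, where the highest value was 79.6. Adamts9 was at 4.05, 2.95, 3.91, 5.25 and 5.28 FPKM in Resist-Mac and 0.41, 0.71, 0.68, 0.93 and 0.73 in Naive-Mac, higher in Resist-Mac by 1.63 ± 0.17 and thus opposite in sign to its change in Resist vs. Naive, a call lost after the correction described next (0.37). The largest change among the members was that of Adamts1, at 23.6, 28.2, 33.4, 21.6 and 25.4 FPKM in Resist-Mac and 1.88, 5.8, 2.65, 3.93 and 1.9 in Naive-Mac (log2 change 2.76 ± 0.23, adjusted p = 8.55e-07), followed by Col4a1 at 2.45 ± 0.19. The member called lower was Adamts13, described below.

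Long transcripts were higher relative to short ones in Resist-Mac than in Naive-Mac, and members are long. The rank correlation of the log2 change with transcript length over all tested genes, which are not independent replicates, was 0.61 in Resist-Mac vs. Naive-Mac, 0.71 in Naive vs. Naive-Mac, 0.64 in Resist vs. Resist-Mac and 0.16 in Resist vs. Naive. The median length was 4306 bases over the 21 members and 3282 over all genes in Resist-Mac vs. Naive-Mac. After a correction of each library for transcript length and GC content, 4 members were called higher in Resist-Mac and 1 lower, where 17 and 1 had been called. The 4 were Adamts1 (log2 change 1.93), Col4a1 (1.07), Col12a1 (0.93) and Loxl2 (0.77). In Resist vs. Naive the same correction left 10 called higher and 2 lower, the same 12 genes. The part of length and GC content in the changes across batches was not tested further.

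**Figure D4:**
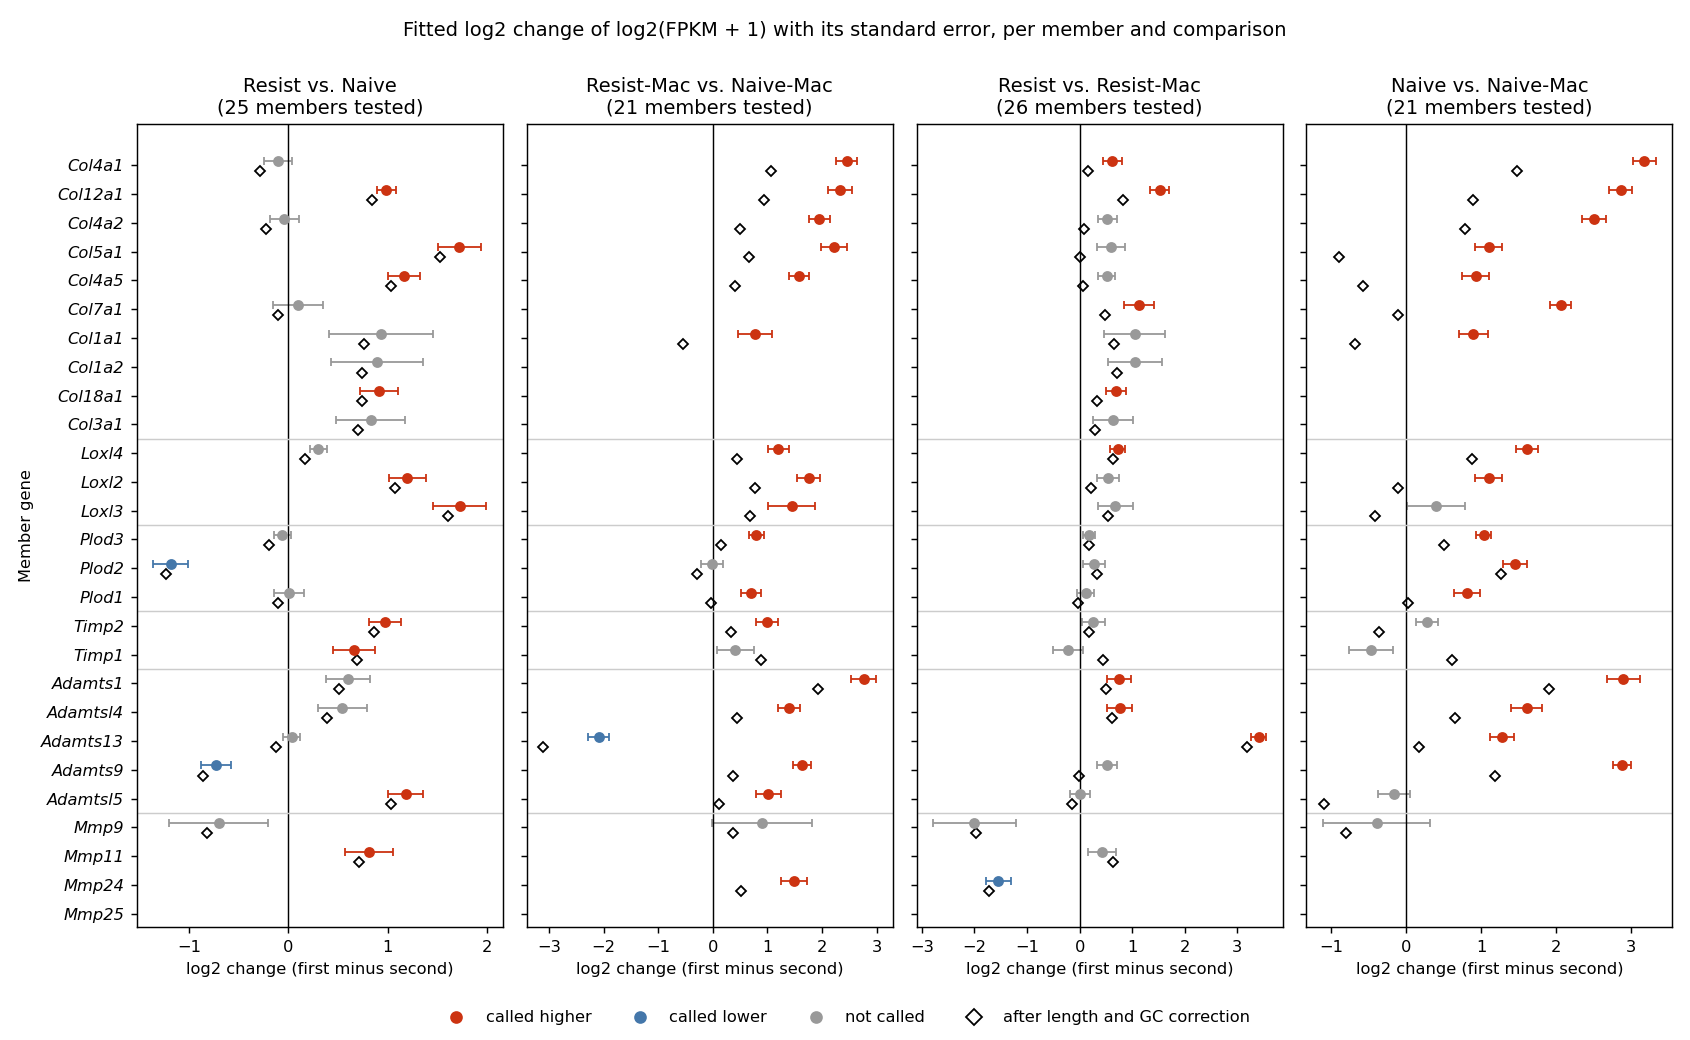
Log2 change of log2(FPKM + 1), first group minus second, with its standard error (circles) for the members tested in each of the 4 comparisons, and the value after correction for transcript length and GC content (open diamonds). Diamonds lie near the circles in Resist vs. Naive and far to the left of most circles in both comparisons with Naive-Mac.

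Resist vs. Resist-Mac asks which members change when macrophages are depleted from resistant lesions. Over all 10049 genes, 9.71% were called higher in Resist, 12% lower, and 29.7% had groups that did not overlap. Of the 26 members tested, 8 were called higher in Resist, 1 lower, and 5 had no overlap, with a median of 0.57 against -0.02 over all genes. Col18a1, Col3a1, Mmp11 and Adamts13 passed the filter through Resist and Mmp24 through Resist-Mac, so they had to differ in that direction. For Adamts13 and Mmp11, with Resist-Mac means of 0.948 and 0.914 FPKM, the filter forced only a small difference. The 5 members that passed through a single group held 3 of the calls. Of the other 21 members, 6 were called higher and 0 lower. After the length and GC correction 3 were called higher and 1 lower, namely Adamts13, Col12a1 and Loxl4 higher and Mmp24 lower. Adamts13 had the largest change of the members tested. It was at 0.91, 1.31, 1.22, 0.60 and 0.70 FPKM in Resist-Mac and 10.3, 5.54, 5.01, 8.04 and 8.38 in Naive-Mac, against at least 16.85 FPKM in every Naive and Resist library, a log2 change of 3.41 ± 0.14 with an adjusted p of 2.27e-09. Its ranges in the 3 batches did not overlap, and batch and depletion cannot be told apart. Col12a1 was 22.9 to 32.6 FPKM in Resist and 5.96 to 12.7 in Resist-Mac (log2 change 1.52 ± 0.19, adjusted p = 9.1e-05), below the Naive range of 12.9 to 15.2 in every Resist-Mac library. Col7a1, at 2.24 to 7.55 FPKM in Resist and 0.56 to 1.99 in Resist-Mac, was higher in Resist by 1.13 ± 0.28 (adjusted p = 0.00666). Loxl4 was at 18.4, 13.6, 20.8, 23.7 and 15.2 FPKM in Resist-Mac, below every Resist library, with a log2 change of 0.72 ± 0.14 and an adjusted p of 0.00167.

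Adamtsl4, Adamts1, Col18a1 and Col4a1 were also called higher in Resist than in Resist-Mac, with overlapping groups. Adamtsl4 was at 11.7, 9.47, 11.4, 18.5 and 15.4 FPKM in Resist-Mac (log2 change 0.76 ± 0.24, adjusted p = 0.0245), a call lost without Resist 1 or 2 or without Resist-Mac 1, 2 or 3, at changes of 0.58 to 0.73. Adamts1 changed by 0.74 ± 0.23 and was not called without Resist 2 (0.56). Col4a1 changed by 0.62 ± 0.18 and lost its call without Resist 2 or 4 or without Resist-Mac 1, 2 or 3, at changes of 0.55 to 0.58. Of the members that had risen in Resist vs. Naive, Col12a1 and Col18a1 were called in both comparisons, which share the 5 Resist libraries, and Col18a1 passed the filter through Resist alone in both. Col5a1 (log2 change 0.61 ± 0.27), Col4a5 (0.52 ± 0.16), Loxl2 (0.54 ± 0.22), Loxl3 (0.68 ± 0.34), Timp2 (0.26 ± 0.22), Timp1 (-0.22 ± 0.28), Mmp11 (0.42 ± 0.26) and Adamtsl5 (0.00 ± 0.19) were not called. Their Resist-Mac means lay above the Naive means throughout, as for Loxl2 at 22.3 FPKM against 13.6 and Adamtsl5 at 3.83 against 1.12. Several of these missing calls turned on 1 library. Col4a5 (0.63) and Mmp11 (0.63) were called without Resist 5, and Loxl2 without Resist 4 (0.66), Resist 5 (0.63) or Resist-Mac 3 (0.67). Col5a1 and Col1a2 were called when all groups entered one limma fit (adjusted p = 0.0473 and 0.0417). With the replicate number as a block in the limma fit, Col5a1, Col1a1, Col1a2 and Loxl3 were called, with adjusted p of 0.0245, 0.0335, 0.0293 and 0.0461. Adamtsl4 lost its call with this block (adjusted p = 0.0548). Adamts9 was called without Resist 1 or without Resist-Mac 4 or 5, at 0.59 to 0.65, and Col4a2 without Resist 1, Resist 5 or Resist-Mac 5, at 0.59 to 0.66. Col1a1, Col1a2 and Col3a1 were called without Resist 2, at 1.59, 1.53 and 0.93, and in Resist-Mac they were lowest in libraries 2 and 3, as were the sums of the endothelial, smooth muscle and pericyte, fibroblast and marrow stroma, neutrophil and macrophage markers. In Resist-Mac, Col1a1 was at 2.89, 0.21, 0.68, 1.92 and 3.35 FPKM, Col1a2 at 2.24, 0.11, 0.30, 1.68 and 1.97 and Col3a1 at 0.99, 0.18, 0.19, 0.84 and 0.79. Of 13 partners in collagen biosynthesis tested, 2 were called higher in Resist, Sparc (0.73 ± 0.20) and Mia3 (0.73 ± 0.15).

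Mmp24, a membrane-type metalloproteinase, was the member called lower in Resist. It was at 0.14, 0.18, 0.30, 0.13 and 0.19 FPKM in Naive, 0.11, 0.19, 0.14, 0.13 and 0.06 in Resist, 2.38, 1.1, 1.6, 2.72 and 4.56 in Resist-Mac and 0.46, 0.16, 0.22, 0.07 and 0 in Naive-Mac. All Resist-Mac libraries were above all others, with a log2 change of -1.55 ± 0.23 and an adjusted p of 0.000312, and Mmp24 entered the test only through Resist-Mac. The gene BC029722, whose RefSeq span overlaps that of Mmp24 by 638 bases, had means of 10.1 (Naive), 9.93 (Resist) and 14.2 FPKM (Naive-Mac) and has no row in the table of Resist-Mac used here. The part of this overlap in the Mmp24 value was not tested. Mmp9 averaged 2.44 ± 2.32 FPKM in Resist and 17.8 ± 16.4 in Resist-Mac and was not called (log2 change -2.001 ± 0.78, adjusted p = 0.0553). It was called lower in Resist without Resist 4 (-2.30), Resist-Mac 2 (-2.42) or Resist-Mac 3 (-2.57), libraries that differed in neutrophil transcripts as given above. Of the 8 neutrophil markers, 6 were called lower in Resist in this comparison.

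In Naive vs. Naive-Mac, the depletion contrast in untreated lesions, most members tested were lower in Naive-Mac, in a comparison where most genes changed. Over all 9837 genes, 37.5% were called higher in Naive, 22.1% lower, and 66% had groups that did not overlap. Of the 21 members tested with limma, 16 were called higher in Naive, 0 lower, and 15 had no overlap. At an unadjusted p under 0.05 there were also 0 lower. Their median was 1.10 against 0.23 over all genes. Of these 16, 5 had a Naive-Mac mean below 1 FPKM, namely Adamts9, Col4a5, Col5a1, Col7a1 and Col1a1, and so passed the filter through Naive. The summed collagen level was 75.2 ± 9.57 FPKM (SD, n = 5) in Naive and 8.83 ± 2.12 in Naive-Mac, against 111 ± 15.5 in Resist and 56.5 ± 6.71 in Resist-Mac. Col4a1 had the largest change, 3.18 ± 0.16 with an adjusted p of 1.28e-09. Adamts1 followed at 2.90 ± 0.22, Adamts9 at 2.88 ± 0.12, Col12a1 at 2.87 ± 0.15 and Col4a2 at 2.52 ± 0.16, each with an adjusted p of at most 5.49e-08. The Plod genes were higher in Naive too, Plod2 by 1.45 ± 0.16, Plod3 by 1.04 ± 0.10 and Plod1 by 0.81 ± 0.18. Plod3 was at 80.1, 66.3, 97.9, 75 and 79.5 FPKM in Resist-Mac and 38.3, 54.6, 44.1, 51.6 and 39.1 in Naive-Mac, and Plod1 at 16.4, 19.1, 23.6, 15.9 and 15.8 and 7.83, 15.7, 11, 12.2 and 8.16. In Naive-Mac, Loxl4 was at 4.66, 9.18, 7.53, 9.32 and 6.76 FPKM, Adamtsl4 at 3.15, 6.6, 4.28, 4.94 and 3.26 and Col7a1 at 0.09 to 0.25. The type I and III chains had Naive-Mac means of 0.48 (Col1a1), 0.23 (Col1a2) and 0.21 FPKM (Col3a1). In Naive-Mac the 2 highest means of any members were those of Plod3 and Plod2.

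After the length and GC correction of Naive vs. Naive-Mac, 8 members were called higher and 3 lower, and the median over the members was 0.18. Adamts1 (log2 change 1.90), Col4a1 (1.48), Plod2 (1.27), Adamts9 (1.19), Col12a1 (0.89), Loxl4 (0.88), Col4a2 (0.78) and Adamtsl4 (0.65) were called higher in Naive both before and after it. Col5a1 and Col1a1 turned to lower in Naive, at -0.89 and -0.68, and Adamtsl5 was called lower at -1.11. The partner genes moved unevenly before this correction, as 3 of 12 tested were called higher in Naive and 2 lower. Mia3, which exports bulky collagens from the endoplasmic reticulum, changed by 3.22 ± 0.12, and Ppib, a prolyl isomerase of collagen folding, by -1.02 ± 0.10. Of 16 other matrix proteases, activators and inhibitors tested 9 were called higher and 1 lower, and all 3 collagen receptors tested were called higher.

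Naive-Mac 2 stood apart from the other libraries of its group. It had the lowest sum of neutrophil markers, 58.6 FPKM against 759 to 6143 in the other 4, and the highest Col12a1, Col4a5, Loxl2, Loxl3, Timp1, Adamts1, Adamtsl4, Adamtsl5, Mmp11, Plod1 and Plod3. Leaving it out moved the count of members called to 17 in Naive vs. Naive-Mac, where Loxl3 was then called (0.81), and left it at 18 in Resist-Mac vs. Naive-Mac, where Timp1 was then called (0.70) and Col1a1 was not (0.83). The difference between the 2 depletion contrasts was itself called for 40.7% of 9876 genes over all 20 libraries, and the members with such a call are given among the results for a closer look.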

How the data were processed

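Cancer cell libraries of 5 pools per group were read on a BGISEQ-500 after oligo-dT selection. The authors deposited 1 table of log2(FPKM + 1) for Naive and Resist and 1 table of FPKM each for Resist-Mac and Naive-Mac, and the log2 values were turned back into FPKM. The submitters' processing notes name Bowtie2 and mm9, and the tool that made the FPKM values is not given in the sources used here. The 752 unnamed transcripts of the first table, 8.45% of its FPKM, were left out. Genes were matched to RefSeq by identifier for 16613 of 16733, 14053 of 14077 and 15827 of 15867 genes of the 3 tables. Gene symbols, overlaps and promoter windows were taken from RefSeq, and transcript length and GC content from the longest GENCODE transcript of each gene.

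Each comparison was fitted with limma 3.58.1 (R 4.3.3, trended prior variance) on log2(FPKM + 1) of all genes averaging 1 FPKM or more in its 10 libraries, without covariates. Fold changes on this scale understate those of low genes. A call required an adjusted p (Benjamini-Hochberg) under 0.05 together with a fold change over 1.5. The study's NOISeq test was replaced by limma, with a noise-distribution probability over 0.8 as an alternative. The fit was checked on simulated data. Depth is unknown, so no counting error is given. Members and lists were chosen with earlier results of these data known. Members with a mean of at least 1 FPKM in any group were named, with values of every library for those called in Resist vs. Naive and the 3 highest of each family. Further members are given by library where a result turns on single libraries. Same-numbered libraries of different groups did not deviate together throughout and were not treated as pairs. A further gene of the Mmp family is not reported here.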

Additional observations from a re-analysis of the deposited data

Results flagged for a closer look

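In 9 of 86 sets of 5 libraries examined, 10.5%, the highest value stood far from the nearest other by Dixon's criterion, which chance exceeds in about 1 in 20 sets. Col12a1 was at 15.2 FPKM in Naive 4 against a next value of 13.15, and at 1.92 in Naive-Mac 2 against 0.93. Col7a1 was at 5.75 in Naive 3 against 3.9. Col1a1 was at 3.61 in Naive 2 against 1.61, and Col1a2, in the same library, at 2.61 against 1.16. Timp1 was at 19.1 in Resist 2 against 9.89, and Loxl2 at 32 in Resist-Mac 3 against 21.26. Loxl3 was at 18.5 in Naive-Mac 2 against 5.58, and Adamtsl5, in that library, at 3.31 against 1.24. Naive-Mac 2 thus held 3 of the 9 values and also the lowest neutrophil marker sum of its group, 58.6 FPKM.

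The depletion change in resistant lesions (Resist minus Resist-Mac) differed from that in naive lesions (Naive minus Naive-Mac) in 12 of the 22 members tested, 54.5%, by limma's interaction term over all 20 libraries, against 40.7% of 9876 genes. The differences on the log2 scale were -2.56 for Col4a1, -2.36 for Adamts9, -2.16 for Adamts1, -1.99 for Col4a2, -1.34 for Col12a1, -1.18 for Plod2, -0.94 for Col7a1, -0.89 for Loxl4, -0.86 for Plod3, -0.85 for Adamtsl4 and -0.70 for Plod1. The fitted changes of these 11 members were above 0 in both contrasts and larger in naive lesions, but those of Plod1, Plod2, Plod3, Adamts9 and Col4a2 were not called in resistant lesions. Adamts13 had a difference of 2.13, from changes of 3.41 in resistant and 1.28 in naive lesions. The median difference was -0.77 over the members and -0.28 over all genes. With 1 member above 0 and 11 below as the count here, the length and GC correction gave 3 and 5 (member median -0.067), quantile normalization 2 and 6 (-0.23) and median-ratio scaling 1 and 7 (-0.45), and the median over all genes lay between 0.014 and 0.043 in these 3 settings. The 2 depleted groups lie in different batches, so batch and treatment cannot be told apart.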

How the results depend on the processing

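In Resist vs. Naive, Resist vs. Resist-Mac, Naive vs. Naive-Mac and Resist-Mac vs. Naive-Mac, 12, 9, 16 and 18 members were called. Requiring a fold over 2 gave 6 in Resist vs. Naive, and 4 in the resistant depletion contrast. The length and GC correction gave 4 in Resist vs. Resist-Mac and 5 in Resist-Mac vs. Naive-Mac. A noise-distribution probability gave 5 and 7 in these comparisons and 8 in Resist vs. Naive, where 6 of the 12 were called again and Adamts9, Col18a1, Col4a5, Mmp11, Timp1 and Adamtsl5 were not, and a mean of at least 5 FPKM gave 11 in Resist-Mac vs. Naive-Mac. The other 82 settings of these counts and of the interaction count stayed within 1.5 times. Leaving out single libraries gave 9 to 14, 7 to 13, 15 to 17 and 16 to 18. In Naive vs. Naive-Mac, quantile normalization called 12 higher and 2 lower and median-ratio scaling 15 and 1. Median-ratio scaling moved the median of all genes from 0.23 to -0.02 there and from 0.34 to -0.01 in Resist-Mac vs. Naive-Mac.

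Among changes called in the main fit or in the alternative, the sign reversed in 7 cases, all under the length and GC correction. In Naive vs. Naive-Mac these were Col4a5 (-0.58), Col5a1 (-0.89), Col7a1 (-0.11), Col1a1 (-0.68) and Loxl2 (-0.11), and in Resist-Mac vs. Naive-Mac Col1a1 (-0.55) and Plod1 (-0.033). The cause was not tested. Of the other single-gene values, 1735 stayed called or stayed uncalled, 123 lost a call and 45 gained one. Sign changes of values called in neither setting were not counted. For example, the change of Col7a1 in Resist vs. Naive spanned -0.077 to 0.27 when single libraries were left out. Timp1 in Resist vs. Naive also lost its call under median-ratio scaling (0.62) and quantile normalization (0.54).

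With the replicate block, 11, 13, 16 and 18 members were called. Replicate numbers do not pair the samples, as few libraries correlated best with the same-numbered library of the other group. Unknown depth limits what can be said of members below 1 FPKM.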

Other observations

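Runx2, a transcription factor of bone cells that was listed among the osteoblast markers, ranged over 7.13 to 8.5 FPKM in the 5 Naive libraries, 8.11 to 12.4 in Resist, 4.55 to 7.37 in Resist-Mac and 0.54 to 2 in Naive-Mac, while Bglap, Sp7 and Alpl were near 0. It was the 1 osteoblast marker of 10 high enough to be tested. Its change was not called in Resist vs. Naive (log2 change 0.29). It was called in Resist vs. Resist-Mac (0.64), Naive vs. Naive-Mac (1.98) and Resist-Mac vs. Naive-Mac (1.63).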
